A study of Ovis aries and Mus musculus with 20 samples.

Results

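The ends of the sheep autosomes were taken as the 20-kb bins that lay within the first 2 Mb or the last 2 Mb of each of the 26 autosomes, the last 2 Mb being counted back from the highest listed end. This gave 52 ends of 100 bins each, or 5200 of the 132797 autosomal bins (3.92%), and the choice used positions only. The ends were compared with each other, between the metacentric chromosomes 1 to 3 and the acrocentric chromosomes 4 to 26, and between the adipose depots. Of the samples of the study, 9 Hi-C libraries of sheep were used, from the greater omentum (GOM), the mesenteric adipose (MAD) and the retroperitoneal adipose (RAD) of 3 animals. The animals were adult female Small-tail Han sheep of 2 years, with no treatment named, and each depot had 3 libraries, 1 from each animal. Hi-C records which DNA segments lie close to each other in the nucleus, and here it was read as the A-B index, a signed score of each 20-kb bin. A positive index places the bin nearer to the A regions of its chromosome, and a negative index nearer to the B regions.

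In mammalian nuclei, compartment A holds open, gene-rich and transcribed chromatin, whereas compartment B holds closed, gene-poor chromatin that often lies at the nuclear lamina or around the nucleolus. Most sheep autosomes are acrocentric, with the centromere close to 1 tip, while the metacentric autosomes arose by centric fusion and carry the centromere inside. The tips end in telomeric repeats, and chromatin next to centromeres is rich in satellite repeats, to which short reads cannot be placed uniquely. Centromeres were not marked in the files used here, so the ends are called first and last by their coordinates on Oar_rambouillet_v1.0.

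The index depends on the coarse A and B regions that the authors had assigned per chromosome and library, so levels of different chromosomes share a scale only as far as those regions do. Depth per library is not given in the index table. Chromosomes 11 and 14 stood apart in another readout: TAD length and mean index correlated at -0.0141 to 0.0796 and 0.0242 to 0.0651 across their TADs, against -0.413 to -0.0996 for the other 24 autosomes, as a description over the 3 depot maps. The class means, the shares of bins in A, the profile and the counts of ends and windows that passed are therefore given also without them. The tissue labels were not checked against marker genes, since sheep gene identifiers are not paired with names in the sources used here.

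Averaged over the acrocentric chromosomes, the first and the last ends lay on opposite sides of 0 in every library. Single chromosomes did not all follow. By their means, chromosomes 5 and 14 had the reverse signs. Chromosomes 7, 12, 16, 23 and 24 had both ends above 0, and chromosomes 11, 13 and 26 had both below 0. Over 23 chromosomes, the mean index of the first 2 Mb was -1.50 ± 0.146 (SD, n = 9 libraries) and that of the last 2 Mb was 1.72 ± 0.197, against -0.542 for the rest of these chromosomes. The first ends had means of -1.72, -1.44 and -1.66 in the GOM libraries of animals 1 to 3, -1.37, -1.26 and -1.40 in MAD, and -1.47, -1.59 and -1.57 in RAD. The last ends had means of 1.38, 1.83 and 1.48 in GOM, 1.83, 1.77 and 1.72 in MAD, and 2.05, 1.72 and 1.65 in RAD. The last minus the first end was 3.22 ± 0.143 (SD, n = 9), between 3.04 and 3.52, and was positive in 9 of 9 libraries. Over 3 animals the exact two-sided sign-flip permutation test gave p = 0.25, the smallest p that 3 animals allow. Without chromosomes 11 and 14 the difference was 3.87.

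Counted as bins, 34.6% ± 1.62 (SD, n = 9) of the acrocentric first ends were in A, while 75.4% ± 1.15 of the last ends were. The rest of the acrocentric chromosomes had 46.5% ± 1.06 of bins in A, so the first ends lay below it and the last ends above it. The ranges over the 9 libraries did not overlap between the ends, at 32.2% to 36.7% and 73.5% to 76.7%. The shares without chromosomes 11 and 14 were 33.3% ± 1.41 and 82.1% ± 1.25.

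**Figure D1:**
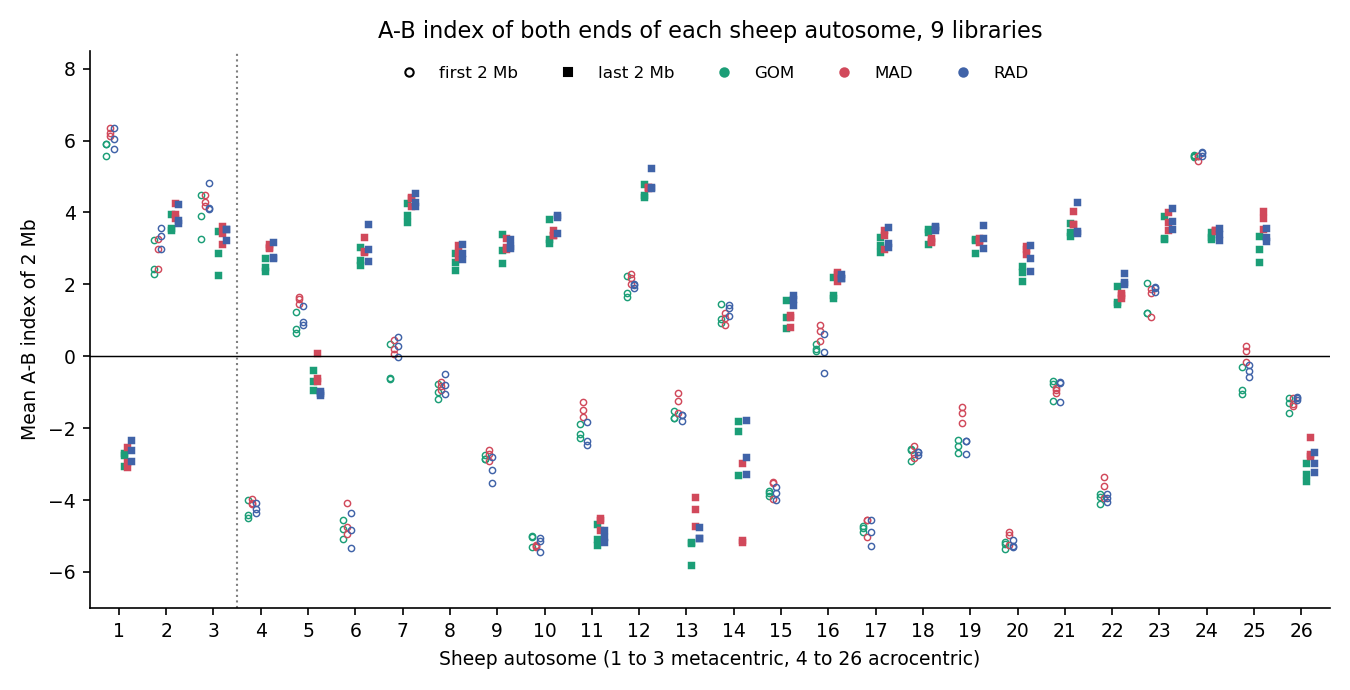
Mean A-B index of the first 2 Mb (open circles) and the last 2 Mb (filled squares) of each sheep autosome, with 1 point for each of 9 libraries coloured by depot. Metacentric chromosomes 1 to 3 stand left of the dotted line. For the acrocentric chromosomes 16 of 23 first ends have a mean below 0 and 18 of 23 last ends a mean above 0, and the last end of chromosome 14 has the widest spread between libraries.

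Among the acrocentric first ends, 16 of 23 had a mean below 0 and 7 above 0. The sign was the same in all 9 libraries for 15 ends in B and 5 ends in A, and was mixed for the first ends of chromosomes 7, 16 and 25. The lowest were those of chromosomes 10, 20 and 17. Chromosome 10 (chr10:1-2000000) had a mean of -5.21, with a lowest library of -5.46, a median of -5.25 and a highest of -5.01. Chromosome 20 had -5.18 (-5.35, -5.24 and -4.89) and chromosome 17 had -4.80 (-5.28, -4.78 and -4.55). In these 3 ends only 14%, 5% and 5% of bins were in A.

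The highest acrocentric first ends were those of chromosomes 24, 12 and 23. Chromosome 24 (chr24:1-2000000) had a mean of 5.58, with a lowest library of 5.44, a median of 5.58 and a highest of 5.68, and 96% of its bins were in A. The next end was far lower, since chromosome 12 had 2.00 (1.65, 2.02 and 2.29) and chromosome 23 had 1.64 (1.09, 1.80 and 2.03). The libraries of chromosomes 12 and 23 overlapped, while no library of chromosome 24 came near them. Set against the interior 2-Mb segments of its own chromosome, the first end of chromosome 24 exceeded all of them. For the 23 acrocentric first ends the median percentile among interior segments was 34.5, with 7 ends under the 10th percentile and 1 over the 90th.

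Among the acrocentric last ends, 18 of 23 were above 0 in all 9 libraries. The remaining 5, on chromosomes 5, 11, 13, 14 and 26, had means below 0, and chromosome 5 had 1 library above 0. The highest were those of chromosome 12 (chr12:82540001-84540000) at 4.72, with a lowest library of 4.43, a median of 4.70 and a highest of 5.24, of chromosome 7 at 4.22 (3.73, 4.26 and 4.53), and of chromosome 23 at 3.68 (3.26, 3.72 and 4.13). These ends were almost wholly in A, with 97%, 99% and 93% of bins. The median percentile of the 23 last ends among the interior segments of their chromosomes was 93.6, with 12 ends over the 90th percentile and 2 under the 10th.

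The lowest acrocentric last ends were those of chromosomes 13, 11 and 14. Chromosome 13 (chr13:85260001-87260000) had a mean of -4.88, with a lowest library of -5.80, a median of -5.04 and a highest of -3.91. Chromosome 11 (chr11:58980001-60980000) also had -4.88 (-5.25, -4.84 and -4.50), and none of its bins was in A. Chromosome 14 (chr14:69120001-71120000) had -3.14 (-5.16, -2.98 and -1.76). The libraries of chromosomes 13 and 11 overlapped, and the spread of chromosome 14 reached into theirs. Without chromosomes 11 and 14 the mean of the acrocentric last ends was 2.26 in place of 1.72.

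The metacentric first ends were high. Their mean was 4.38 ± 0.311 (SD, n = 9 libraries), and 97.9% ± 1.43 of their bins were in A, against 53.5% ± 1.21 in the rest of these chromosomes. Chromosome 1 (chr1:1-2000000) had 6.02, with a lowest library of 5.56, a median of 6.03 and a highest of 6.36. Chromosome 3 had 4.18 (3.27, 4.18 and 4.83) and chromosome 2 had 2.95 (2.30, 2.99 and 3.58). In rank, all 3 exceeded 22 of the 23 acrocentric first ends, the exception being chromosome 24, which lay between chromosomes 1 and 3.

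The metacentric last ends were divided. Chromosome 2 (chr2:263700001-265700000) had 3.87, with a lowest library of 3.52, a median of 3.86 and a highest of 4.26, and chromosome 3 (chr3:239160001-241160000) had 3.23 (2.25, 3.42 and 3.63). Chromosome 1 (chr1:299320001-301320000) had -2.77 (-3.09, -2.76 and -2.34), with 20% of its bins in A. All 3 values lay within the range of the 23 acrocentric last ends, from -4.88 to 4.72.

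Metacentric minus acrocentric first ends was 5.88 ± 0.236 (SD, n = 9), between 5.43 and 6.19 over libraries. For the last ends the same difference was -0.270 ± 0.124. That small negative value rested on chromosome 1, since it was 1.84 without chromosome 1, and it was also positive for ends of 1 Mb (1.36) and of 5 Mb (1.27). Last minus first was -2.94 ± 0.127 for the metacentric chromosomes, negative in 9 of 9 libraries, and -0.0126 without chromosome 1. For the 2-Mb values over all 3 metacentric chromosomes, the exact sign-flip permutation test over 3 animals gave p = 0.25 each, its smallest. With 3 metacentric chromosomes no test across chromosomes was made.

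Within single chromosomes the difference between the ends was large compared with the spread between libraries. In the limma fit of last minus first over 26 autosomes, 26 passed an adjusted p of 0.05 (100% of those tested), with 18 higher at the last end and 8 lower. The 8 were chromosomes 1, 3, 5, 11, 13, 14, 24 and 26. The 9 libraries came from 3 animals and the fit took them as independent, so these p-values measure the spread between libraries at fixed positions. Pairs of interior segments were not compared, so passing cannot be read as particular to the ends. The counts were 18 and 8 also with the animal as a block.

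The 3 largest differences were those of chromosomes 10, 17 and 20, which paired low first ends with last ends in A. Chromosome 10 had 8.73 ± 0.107 (limma standard error, adjusted p = 3.99e-16), between 8.17 and 9.13 over the 9 libraries. Chromosome 17 had 8.03 ± 0.104 and chromosome 20 had 7.85 ± 0.103, and their libraries overlapped. The most negative were chromosome 1 at -8.79 ± 0.143, chromosome 14 at -4.30 ± 0.242 and chromosome 13 at -3.33 ± 0.0947. Chromosome 1 thus had a difference of similar size to that of chromosome 10, with the opposite sign. Chromosome 24 was lower at its last end by 2.16 ± 0.0730 while both of its ends were in A.

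Against the rest of the same chromosome, 51 of 52 ends differed in the limma fit (98.1% of those tested). Here too the p-values measure only the spread between libraries at fixed positions. Interior segments were not tested in this way, so the count cannot be read as a trait particular to the ends. Of the first ends 11 were higher and 14 lower than the rest, and of the last ends 20 were higher and 6 lower. The first end of chromosome 16 was the 1 that did not pass, at 0.0800 ± 0.0864 (adjusted p = 0.366). The largest rise over the rest was that of the first end of chromosome 24, at 6.39 ± 0.0595, followed by the first end of chromosome 1 at 5.34 ± 0.0667. The largest falls were those of the first end of chromosome 20 (-4.56 ± 0.0726) and the last end of chromosome 13 (-4.45 ± 0.0845).

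Inward from the tips the mean levels were followed over 10 Mb. In 1-Mb steps from the start of the acrocentric chromosomes the mean index was -1.90, -1.09, -1.46, -1.48, -1.44, -1.72, -1.34, -1.23, -1.65 and -1.34, so it was below 0 in each of the 10 steps. The outermost 100 kb of the first ends were lowest, at -3.56 ± 0.240 (SD, n = 9), or -3.28 ± 0.220 without chromosomes 11 and 14, and the level reached -1.11 at 0.6 to 0.7 Mb. Without the outermost 200 kb the mean of the first ends was -1.30. From the listed end inward the steps were 1.65, 1.78, 0.937, 0.827, 0.662, 0.290, -0.631, -0.126, 0.0531 and 0.0429, so it was above 0 over the outermost 6 Mb, below 0 in the next 2 steps and near 0 after. Of the 23 chromosomes, 18 were above 0 in the outermost 1 Mb of the last end and 12 at 6 to 7 Mb. Without chromosomes 11 and 14 the mean index was 2.23 in the outermost 1 Mb and -0.0121 at 6 to 7 Mb, and the next 3 steps had 0.327, 0.698 and 0.374, so 6 to 7 Mb was the 1 step that was not above 0. On single chromosomes a run was followed from the tip until 3 adjacent 100-kb windows had the sign opposite to the 2-Mb mean. Shorter stretches of the opposite sign did not end it. As a description, its length was similar at both ends. The median was 3.8 Mb (0.2 to 9.8 Mb) for the 16 acrocentric first ends in B and 3.1 Mb (1.5 to 13.1 Mb) for the 18 last ends in A.

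**Figure D2:**
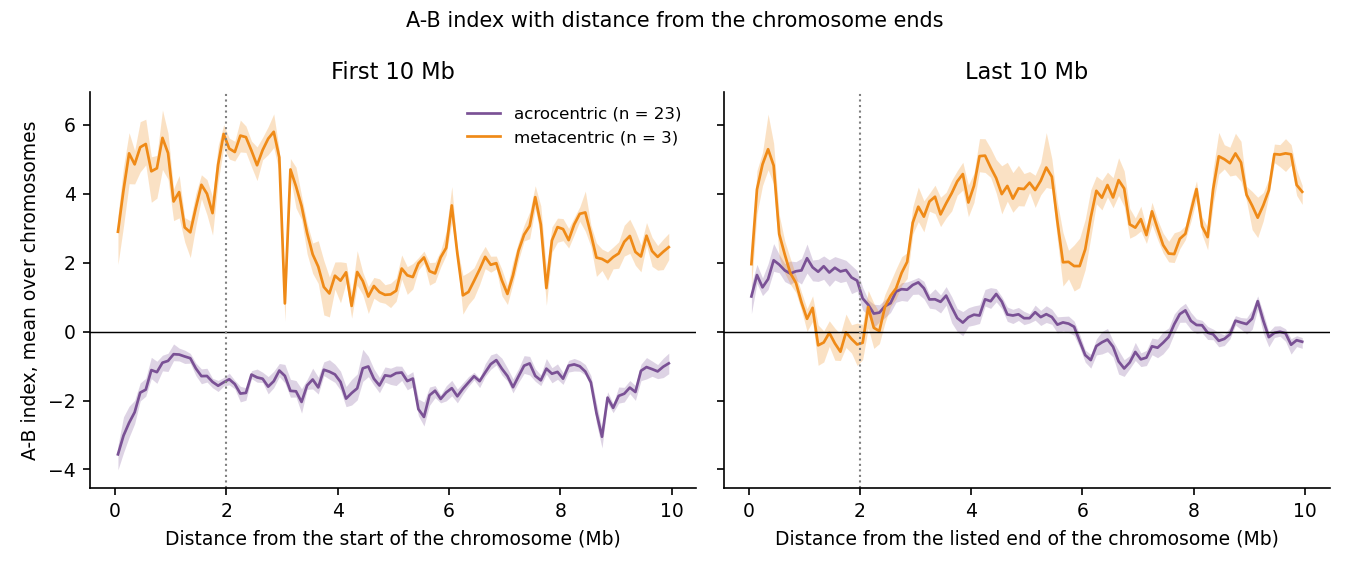
A-B index in 100-kb steps over the first and last 10 Mb, as the mean over 23 acrocentric (purple) or 3 metacentric (orange) chromosomes, with bands from the lowest to the highest of 9 libraries and a dotted line at 2 Mb. The acrocentric line starts at -3.56 and its 1-Mb means stay below 0 over the 10 Mb shown, while from the listed end they start above 0, are below 0 from 6 to 8 Mb and lie near 0 after (0.0531 and 0.0429).

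The metacentric line moved more, as the mean of 3 chromosomes. In 1-Mb steps from the start it was 4.81, 3.96, 5.37, 2.44 and 1.28, with all 3 chromosomes above 0 in the first 3 steps. From the listed end it was 3.01, -0.120, 1.04, 3.85 and 4.40, so that the part from 1 to 2 Mb was the lowest of these. In each of the first 3 of these steps 1 of the 3 chromosomes was below 0.

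Single bins of the ends kept their compartment across libraries. The sign was the same in all 9 libraries for 83.7% of the 5200 bins of the ends, against 79.8% of the 127597 other bins. The share was lower in acrocentric first ends (78.1%) than in acrocentric last (87.7%), metacentric first (91.7%) or metacentric last ends (88.3%), as a description. The median SD of a bin within depots was 0.634 in the ends and 0.530 in the rest, while the median absolute index was 3.36 and 2.51.

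A few bins of the ends had very large values. The outermost bin of the first end of chromosome 14 (chr14:1-20000) had a mean of -33.0, from -35.8 to -28.6 over libraries, and the next bin had -13.5. The other 3 bins of the ends that passed an absolute index of 15 in at least 1 library lay on chromosome 5 (chr5:540001-560000 at -17.0 and chr5:560001-580000 at -16.2) and chromosome 20 (chr20:1040001-1060000 at 17.4). All 5 bins were in acrocentric first ends and held their sign in every library. In contrast, the outermost bin lay within 0.2 of 0 in all 9 libraries in 3 first and 5 last ends. Such near-0 bins made up 0.885% of the ends and 1.00% of the rest.

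The ends also differed in how well libraries of a depot repeated each other. The largest SD within depots was that of the last end of chromosome 14 (0.966), followed by the first ends of chromosomes 3 (0.434) and 2 (0.420). The smallest were those of the first end of chromosome 24 (0.0571), the last end of chromosome 24 (0.108) and the first end of chromosome 20 (0.131). Chromosome 24 was therefore the most repeatable at both ends.

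Between depots the class means differed little. For the acrocentric first ends the MAD mean exceeded the GOM mean by 0.260 (-1.35 ± 0.0730 against -1.61 ± 0.146, SD, n = 3 each), with RAD at -1.54 ± 0.0616, and all 3 MAD libraries lay above all others. The exact permutation test over 280 divisions gave p = 0.0643 (adjusted p = 0.257 over 6 values). Without the second GOM library, which lay nearest to MAD, this difference was 0.342 with an adjusted p = 0.0214 in the exact permutation test. Leaving it out removed the overlap between GOM and RAD and set the libraries of all 3 depots apart. This p is therefore no separate support for a difference. With the labels exchanged within animals only, all 9 libraries gave p = 0.167 (exact permutation, adjusted p = 0.417, smallest possible p 0.0278). For the acrocentric last ends GOM had 1.57 ± 0.237, MAD 1.77 ± 0.0568 and RAD 1.81 ± 0.211, the libraries of the depots overlapped, and the exact permutation test gave p = 0.368 (adjusted p = 0.441). Without chromosomes 11 and 14 the last ends had 2.07 ± 0.230 (GOM), 2.37 ± 0.0354 (MAD) and 2.34 ± 0.189 (RAD), the MAD libraries (2.35 to 2.41) lay above the GOM libraries (1.86 to 2.32), and the exact permutation test gave p = 0.125 (adjusted p = 0.206). The corresponding first ends were at -1.71 (GOM), -1.45 (MAD) and -1.65 (RAD), with an unchanged order (exact permutation p = 0.05, adjusted p = 0.182).

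The metacentric ends were lowest in GOM on both sides. The first ends had 4.11 ± 0.414 in GOM, beside 4.48 ± 0.138 for MAD and 4.57 ± 0.130 for RAD (SD, n = 3, exact permutation p = 0.139, adjusted p = 0.257). The last ends had 1.24 ± 0.285, 1.52 ± 0.0919 and 1.57 ± 0.186 (exact permutation p = 0.171, adjusted p = 0.257). In both, the second GOM library lay among those of the other depots. Last minus first was 3.17 ± 0.0912 for GOM, 3.12 ± 0.0852 for MAD and 3.35 ± 0.154 for RAD on the acrocentric chromosomes (exact permutation p = 0.0857, adjusted p = 0.257), with all RAD libraries above all MAD libraries, and the metacentric values ranged from -2.99 to -2.86 over depots (exact permutation p = 0.518). The smallest p that the 280 divisions allow is 0.00357.

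**Figure D3:**
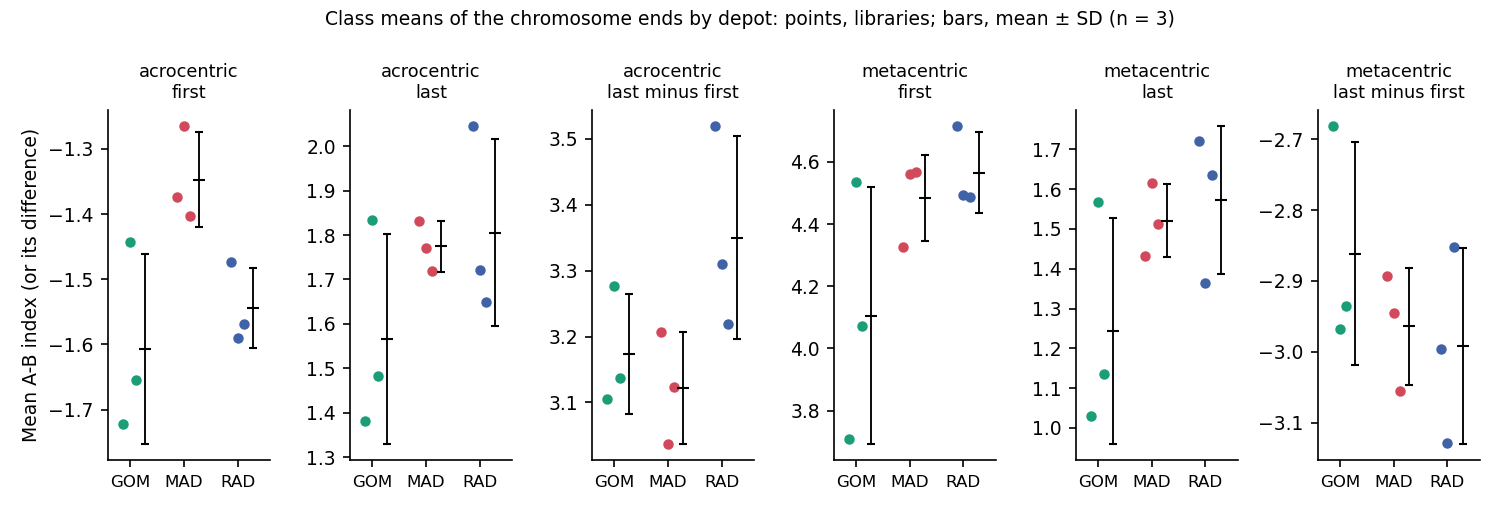
Class means of the chromosome ends in each depot, with 1 point for each library and bars for the mean ± SD of 3 libraries. Each panel has its own axis that does not start at 0, in units of the A-B index. The MAD libraries lie above the others for the acrocentric first ends, and the RAD libraries lie above those of MAD for the acrocentric difference, where GOM overlaps both. In the other panels the 3 depots overlap.

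The 52 ends were then tested singly, in a limma fit of all 1328 2-Mb segments of the autosomes. Between MAD and GOM 10 ends passed an adjusted p of 0.05, which is 19.2% of the ends beside 17% of all segments. Of these 9 were higher and 1 was lower in MAD, beside 12.6% and 4.44% of all segments. Over all segments the median difference was 0.157 and over the ends it was 0.260. Between RAD and GOM 0 ends passed (0% of all segments), and 9 ends had an unadjusted p under 0.05 in limma (17.3%, beside 12.3% of all segments). For this pair the median difference was 0.198 over the ends and -0.0785 over all segments. After quantile normalization 0 ends passed, and 19 had an unadjusted p under 0.05 (36.5%, beside 12.4% of all segments). The medians for RAD and GOM were then 0.273 over the ends and 0.00978 over all segments. Between RAD and MAD 6 ends passed, which is 11.5% of the ends beside 22.3% of all segments. Of these 2 were higher and 4 lower in RAD, beside 1.81% and 20.5% of all segments. Here the median difference was -0.0316 over the ends and -0.227 over all segments, so the segments as a whole were lower in RAD. Quantile normalization brought this median over all segments to 0.0111. The split between RAD and MAD was then 4 higher and 1 lower, beside 77 and 79 over all segments. That between MAD and GOM was 7 higher and 1 lower, beside 120 and 122 over all segments. The counts moved with single libraries. Between MAD and GOM 2 ends passed without GOM library 1, 6 without MAD library 2 and 5 without MAD library 3, and between RAD and MAD 3 passed without MAD library 1, 2 without MAD library 2 and 1 without RAD library 2.

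**Figure D4:**
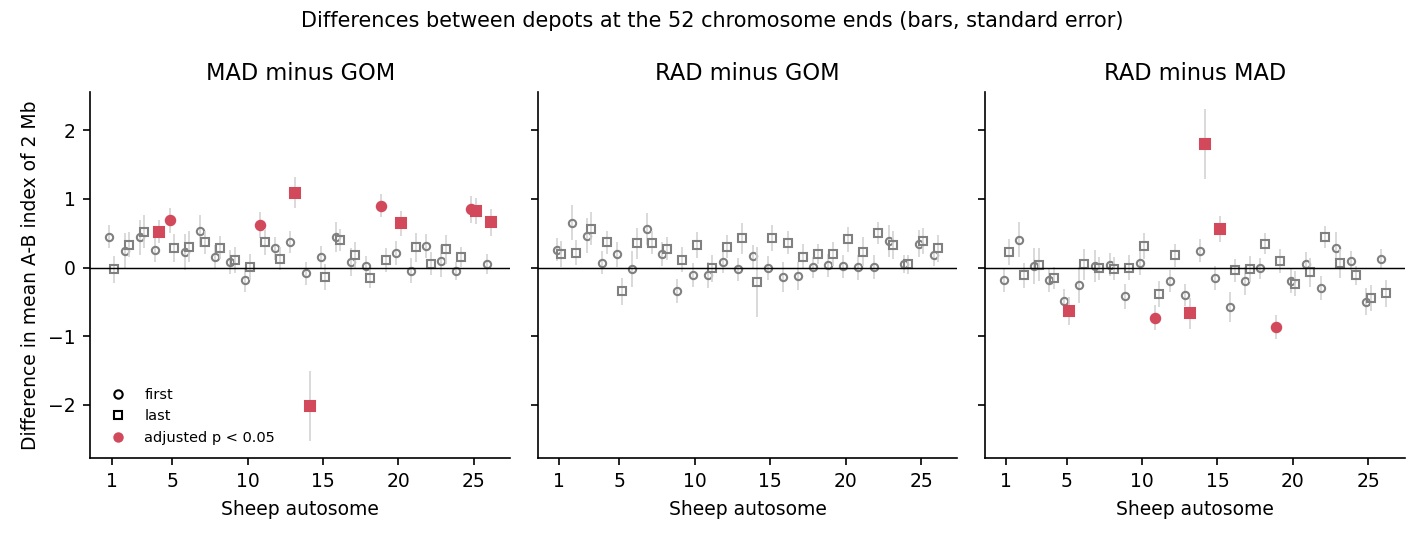
Differences between depots in the mean A-B index of the 52 chromosome ends (circles, first; squares, last), with bars for the limma standard error and filled red symbols for an adjusted p under 0.05. Most ends lie between -1 and 1, and the last end of chromosome 14 lies at -2.02 for MAD minus GOM and at 1.81 for RAD minus MAD.

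The first end of chromosome 19 was higher in MAD than in both other depots. It had -2.70, -2.50 and -2.34 in GOM, -1.58, -1.85 and -1.40 in MAD, and -2.36, -2.71 and -2.35 in RAD for animals 1 to 3. No MAD library overlapped those of the other depots, and the end stayed in B in every library. MAD minus GOM was 0.900 ± 0.170 (limma standard error, adjusted p = 0.00455) and RAD minus MAD was -0.865 ± 0.170 (adjusted p = 0.00338). Both passed under all 14 alternatives tried for them.

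The last end of chromosome 13 was also less negative in MAD. Its values were -5.80, -5.16 and -5.19 in GOM, -4.25, -3.91 and -4.72 in MAD, and -4.76, -5.07 and -5.04 in RAD. MAD did not overlap GOM or RAD, although the MAD library of animal 3 and the RAD library of animal 1 nearly met. MAD minus GOM was 1.09 ± 0.227 (limma, adjusted p = 0.00618), which passed under all 14 alternatives. RAD minus MAD was -0.667 ± 0.227 (limma, adjusted p = 0.0467), which passed under 6 of 14.

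Both ends of chromosome 25 were higher in MAD than in GOM. The first end had -0.942, -0.307 and -1.04 in GOM, -0.166, 0.275 and 0.155 in MAD, and -0.410, -0.591 and -0.233 in RAD. MAD was thus the 1 depot in which this end had libraries above 0, namely 2 of 3, and its difference from GOM was 0.850 ± 0.195 (limma, adjusted p = 0.00919). The last end (chr25:45660001-47660000) was in A throughout, with 2.63, 3.33 and 2.98 in GOM, 3.55, 4.03 and 3.84 in MAD, and 3.20, 3.57 and 3.33 in RAD. Its difference between MAD and GOM was 0.825 ± 0.190 (limma, adjusted p = 0.00923). Each of the 2 was lost without GOM library 1, at adjusted p of 0.0548 and 0.0629 in limma.

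The last end of chromosome 14 was the 1 end that passed with a lower value in MAD than in GOM. It had -2.09, -1.79 and -3.31 in GOM, -2.98, -5.11 and -5.16 in MAD, and -1.76, -2.80 and -3.27 in RAD. The MAD library of animal 1 overlapped the other depots, while those of animals 2 and 3 lay below all others. In each of the 3 animals MAD was lower than GOM and lower than RAD. MAD minus GOM was -2.02 ± 0.511 (limma, adjusted p = 0.0156) and RAD minus MAD was 1.81 ± 0.511 (adjusted p = 0.0229). Each passed under 10 of 14 alternatives, among them the animal as a block (limma, adjusted p = 0.000172 and 0.00033). MAD minus GOM no longer passed without GOM library 1 (-1.86, adjusted p = 0.0629), GOM library 2 (-1.72, 0.0628), MAD library 2 (-1.67, 0.0728) or MAD library 3 (-1.65, 0.0702), all in limma. RAD minus MAD no longer passed without MAD library 2 (1.46, adjusted p = 0.0978), MAD library 3 (1.43, 0.0845), RAD library 1 (1.38, 0.0649) or RAD library 2 (1.90, 0.0622). The part that the coarse A and B regions of this chromosome had in these values was not tested.

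The first end of chromosome 11 was among the 4 largest differences between RAD and MAD. It had -2.28, -1.87 and -2.15 in GOM, -1.28, -1.69 and -1.49 in MAD, and -1.83, -2.47 and -2.35 in RAD. All 3 MAD libraries lay above the others. RAD minus MAD was -0.729 ± 0.188 (limma, adjusted p = 0.0151), and MAD minus GOM was 0.615 ± 0.188 (adjusted p = 0.0354). The former passed under 11 and the latter under 8 of 14 alternatives, and both were lost after quantile normalization (limma, adjusted p = 0.101 and 0.109). The other ends that passed differed by 0.523 to 0.687 between MAD and GOM and by -0.632 and 0.566 between RAD and MAD. Of the 14 alternatives, those between MAD and GOM passed under 9 (last end of chromosome 4) or 10 (first end of chromosome 5, last ends of chromosomes 20 and 26), and those between RAD and MAD under 9 (last end of chromosome 5) or 8 (last end of chromosome 15). For all 16 differences that passed, the direction was the same in 3 of 3 animals. They were picked on these same libraries, so this is no separate check, and some ends count in both pairs of depots.

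Within the ends the differences were found in short stretches. In a limma fit of 26570 windows of 100 kb, 104 of the 1040 windows of the ends passed between MAD and GOM (10%, beside 9.51% of all windows). Of these 76 were higher and 28 lower in MAD, beside 6.48% and 3.03% of all windows. Between RAD and MAD 52 passed (5%, beside 8.89%). Here 19 were higher and 33 lower in RAD, beside 1.11% and 7.78% of all windows. Between RAD and GOM 0 passed (0% of all windows) and 121 had an unadjusted p under 0.05 (11.6%, beside 9.95% of all windows). After quantile normalization 0 passed for this pair, and 209 had an unadjusted p under 0.05 (20.1%, beside 11.2% of all windows). With the animal as a block 157 and 100 windows passed (15.1% and 9.62%, beside 13.1% and 12.4% of all windows). After quantile normalization the split between MAD and GOM was 60 higher and 35 lower, beside 1342 and 1359 over all windows. That between RAD and MAD was 41 higher and 17 lower, beside 718 and 1040 over all windows. In the ends the excess of lower windows between RAD and MAD thus turned into an excess of higher ones. Over all windows the lower ones stayed in excess. The count between MAD and GOM was 15 without GOM library 1, 69 without MAD library 1, 46 without MAD library 2 and 39 without MAD library 3. That between RAD and MAD was 30 without MAD library 3 and 21 without RAD library 2.

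The longest runs of adjacent windows that were higher in MAD than in GOM spanned 600 kb. On chromosome 13 the run was chr13:85300001-85900000, 1360 kb from the listed end, where the index was -4.25, -3.74 and -3.69 in GOM, -2.20, -1.69 and -2.60 in MAD, and -2.29, -3.30 and -3.03 in RAD. On chromosome 25 it was chr25:46700001-47300000, with 1.52, 2.48 and 2.32 in GOM, 3.01, 3.35 and 3.27 in MAD, and 2.31, 2.77 and 2.39 in RAD. The GOM and MAD libraries were apart in both runs, with RAD between their means. The run on chromosome 13 stayed in B and that on chromosome 25 in A.

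The longest run that was lower in MAD than in GOM was the outermost 920 kb of the last end of chromosome 14 (chr14:70200001-71120000). Its index was -2.17, -1.47 and -3.35 in GOM, -3.33, -5.68 and -5.93 in MAD, and -1.78, -2.54 and -3.33 in RAD. Here MAD library 1 lay next to the third libraries of GOM and RAD, and the other MAD libraries were far below. The outermost 320 kb of the same end held the longest run that was higher in RAD than in MAD. The longest run that was lower in RAD than in MAD was chr25:100001-500000, with -0.933, -0.703 and -0.895 in MAD and -2.25, -1.58 and -2.10 in RAD. These last libraries did not overlap, and those of GOM, at -2.39, -1.67 and -2.03, lay with RAD.

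Chromosome 14 held a large part of the windows that differed. Of the 28 windows of the ends that were lower in MAD than in GOM, 8 lay in its first end and 11 in its last end. Its first end also held 4 windows that were higher in MAD, and its mean over 2 Mb was 1.13 ± 0.286 (SD, n = 3) in GOM and 1.05 ± 0.170 in MAD. In chr14:100001-400000 the index was -3.78, -3.79 and -2.88 in GOM and -1.71, 0.465 and 0.244 in MAD, whereas in chr14:1100001-1400000 it was 4.29, 4.61 and 3.68 in GOM and 3.21, 2.47 and 2.14 in MAD. In both stretches MAD lay nearer to 0 than GOM, with no overlap. On the 48 ends outside chromosomes 11 and 14, 8 ends and 79 windows passed between MAD and GOM (8 ends and 70 windows higher in MAD). Between RAD and MAD 4 ends and 35 windows passed on these ends (1 end and 9 windows higher in RAD). The shares over all segments and windows of the same autosomes were not counted. These counts therefore cannot be read as more or fewer than along the rest of those autosomes.

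At 20 kb 0 bins of the ends passed in limma between any depots (0% of all bins). At an unadjusted p under 0.05 there were 768 of 5200 between MAD and GOM, 430 between RAD and GOM and 588 between RAD and MAD, beside 16.1%, 8.72% and 16.9% of all bins. Without the bins that were near 0 in all libraries, 53 bins of the ends passed between MAD and GOM (1.03%, beside 0.751% of all bins). Between RAD and GOM 0 passed (0% of all bins), and between RAD and MAD 29 passed (0.563%, beside 0.729% of all bins).

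Last, the difference between the 2 ends of a chromosome was compared between depots. Between MAD and GOM and between RAD and GOM 0 of 26 autosomes passed in limma (0% in both), with 4 and 2 at an unadjusted p under 0.05 (15.4% and 7.69%). Between RAD and MAD 2 passed (7.69%), both with the larger difference in RAD. On chromosome 19 last minus first was 4.86, 5.08 and 4.59 in MAD and 6.01, 6.01 and 5.38 in RAD, with GOM at 5.58, 5.76 and 5.57. RAD minus MAD was 0.956 ± 0.216 (limma, adjusted p = 0.0237). Of its ends, the first differed between RAD and MAD as given above, and the last differed by 0.0908 ± 0.173 (limma, adjusted p = 0.731). On chromosome 22 last minus first was 5.32, 5.12 and 5.57 in MAD and 6.26, 6.06 and 5.92 in RAD, with GOM at 5.54, 5.78 and 5.44. Its RAD minus MAD was 0.745 ± 0.190 (limma, adjusted p = 0.0283). Neither of its ends passed alone, at -0.303 ± 0.175 for the first and 0.442 ± 0.162 for the last (limma, adjusted p = 0.226 and 0.0609). Over the 23 acrocentric chromosomes the difference was larger in RAD than in MAD on 14 and smaller on 9, with a median of 0.177.

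TADs, the self-interacting domains between insulated boundaries, were sparser at the ends in the 1 merged map of each depot. There were 1.50 boundaries per Mb in the first ends and 1.40 in the last ends of the GOM map, against 1.70 in the rest. The MAD map had 1.31 and 1.38 against 1.61, and the RAD map 1.35 and 1.23 against 1.62. The outermost 0.5 Mb had 0.846, 0.538 and 0.615 boundaries per Mb at the first ends and 0.538, 0.538 and 0.462 at the last ends of GOM, MAD and RAD. From 0.5 to 2 Mb the values were 1.72, 1.56 and 1.59 at the first ends and 1.69, 1.67 and 1.49 at the last ends. The shortfall thus lay mainly in the outermost 0.5 Mb. The inner part was close to the rest, slightly below it at the first ends of MAD and RAD. It lay furthest below the rest at the last ends of RAD (1.49 against 1.62). Boundaries had been called with an insulation window of 260 kb, and no outermost TAD edge lay nearer than 320 kb to a tip. Leaving out chromosomes 11 and 14, the GOM map had 1.50 and 1.40, the MAD map 1.29 and 1.42 and the RAD map 1.33 and 1.25. With 1 map a depot these values have no replicate check.

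**Figure D5:**
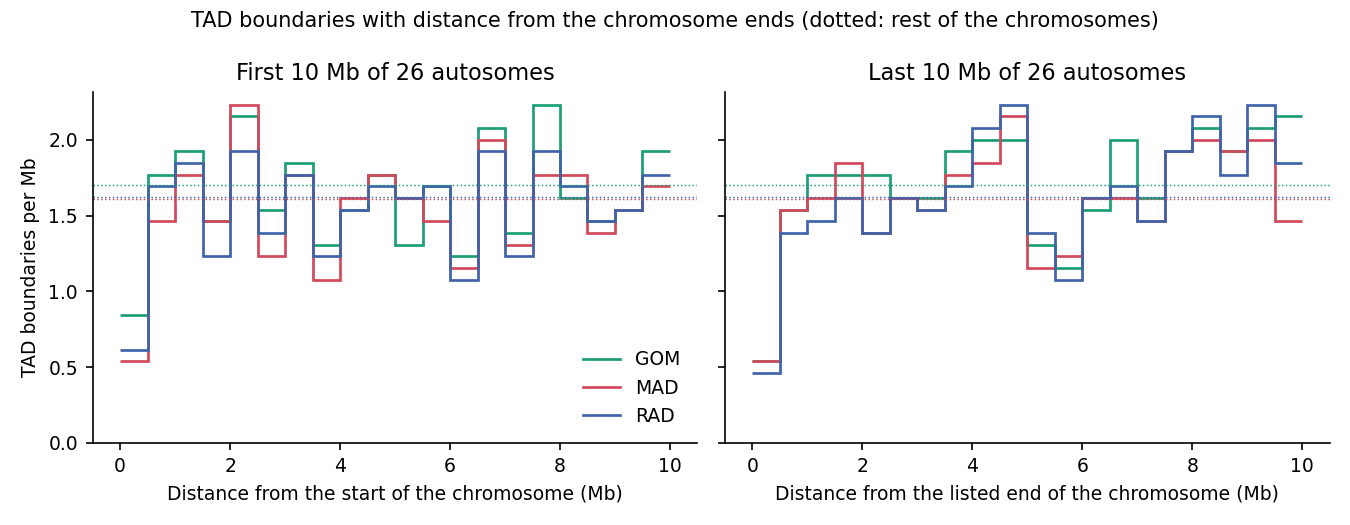
TAD boundaries per Mb in 0.5-Mb steps over the first and last 10 Mb of 26 autosomes, 1 line for each depot map, with dotted lines at the mean of the rest of the chromosomes. The outermost step lies between 0.462 and 0.846 per Mb, below all dotted lines.

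The outermost TAD edge lay at a median of 580 kb from the tip at acrocentric first ends in GOM and MAD and 600 kb in RAD, and at 600, 680 and 740 kb at acrocentric last ends. TADs of the acrocentric first ends had a median length of 440 kb in GOM, 420 kb in MAD and 450 kb in RAD. Those of the acrocentric last ends had 520 kb in all 3 maps, against 480, 500 and 500 kb in the rest of these chromosomes. At the metacentric first ends there were 0.833 boundaries per Mb in GOM and 1.00 in MAD and RAD, from 5 or 6 boundaries a map.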

How the data were processed

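The deposited index is a signed score that the authors had computed for every 20-kb bin and sheep Hi-C library, and they listed the TADs of 1 merged map a depot by position. Per the methods of the study, BWA 0.7.8 placed the reads on Oar_rambouillet_v1.0, Juicer kept pairs with a mapping quality of at least 30, and R 3.6.1 gave the coarse regions from 100-kb matrices. The deposited RNA-seq tables, in estimated counts and TPM, were not used here, because no source used here places sheep genes on this build, so gene content, expression and sequence of the ends were not analysed. Columns of unmapped samples numbered 0.

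Bins were averaged over 2-Mb ends, 2-Mb segments and 100-kb windows. Differences were tested with limma 3.58.1 in R 4.3.3 with a variance trend, depot as the only term and 6 residual degrees of freedom. P-values were adjusted by Benjamini-Hochberg over all features of a fit, with a threshold of 0.05. Exact permutation tests were used for class means. Python 3.11.15, numpy 2.4.6, pandas 2.3.3 and scipy 1.17.1 were used otherwise, and matplotlib 3.10.9 for figures. The fit was tested on simulated data. Same-numbered libraries came from the same animal, as the labels' sheep numbers imply. Deviations from depot means correlated at 0.153 within animals (0.0340 to 0.277, 9 pairs) and -0.0766 between animals over all bins. Taking deviations from depot means ties the second value to the first, so it is no separate check. The animal as a block was an alternative. The labels do not say that libraries of an animal were prepared separately. Depth is unknown from the index table.

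The members, lists and tests were chosen with earlier results of these data known. Ends were named by rule: all metacentric ends, the 3 highest and 3 lowest acrocentric ends per side, the 3 largest and smallest differences between ends, the 4 largest depot differences past the threshold per pair, the 3 largest and smallest SDs, and the longest run of windows per direction and pair. Alternatives changed the length of the ends, mean to median, scaling, variance trend, outermost bins, libraries and, added after seeing the data, near-0 bins and chromosomes 1, 11 and 14.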

Additional observations from a re-analysis of the deposited data

Results flagged for a closer look

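The difference between the last and the first end of a chromosome was itself different between depots on 2 autosomes in limma. On chromosome 19 it was larger in RAD than in MAD by 0.956 ± 0.216 (adjusted p = 0.0237), in 3 of 3 animals, which are those that gave the call. It no longer passed without MAD library 3 (0.831, adjusted p = 0.0764 in limma), RAD library 1 (0.849, 0.0734) or RAD library 2 (0.851, 0.0764), nor with medians over bins (1.12, 0.0595) or quantile normalization (0.918, 0.0570). On chromosome 22 it was larger by 0.745 ± 0.190 (adjusted p = 0.0283 in limma), and passed in 8 of 18 alternatives, at 0.0805 (adjusted p = 0.856 in limma) for ends of 5 Mb.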

How the results depend on the processing

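Metacentric minus acrocentric last ends changed sign between alternatives, while the class mean of the metacentric last ends was above 0 in each value given here. The other class means, of the first and last acrocentric ends and the first metacentric ends, kept their sign under all alternatives run. With ends of 1 Mb they were -1.90 (acrocentric first) and 4.81 (metacentric first), the metacentric last ends 3.01, the differences between ends 3.55 (acrocentric) and -1.80 (metacentric), and metacentric minus acrocentric 6.71 (first) and 1.36 (last). With ends of 5 Mb the acrocentric last ends were 1.17, the metacentric ends 3.57 and 2.44, the differences 2.65 and -1.13, and metacentric minus acrocentric 5.05 and 1.27. With medians over bins the metacentric last ends were 0.874, the differences 3.47 and -3.50, and metacentric minus acrocentric last ends -0.987. Without the outermost 200 kb the values were -1.30 for acrocentric first ends, 3.06 and -3.21 for the differences and -0.490 for metacentric minus acrocentric last ends. Without chromosomes 11 and 14 they were 2.26, 3.87 and -0.815 for acrocentric last ends, the acrocentric difference and metacentric minus acrocentric last ends. Without chromosome 1 the metacentric ends were 3.57 and 3.55, their difference -0.0126, and metacentric minus acrocentric 5.07 and 1.84. Divided by the SD of each chromosome, which changes the unit, the 4 class means were -0.496, 0.518, 1.39 and 0.479, the differences 1.01 and -0.914, and metacentric minus acrocentric 1.89 and -0.0388. The cause of these shifts was not tested, beyond the bins or chromosomes that each alternative leaves out.

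Leaving out each library in turn gave -1.53 to -1.47 and 1.67 to 1.76 for acrocentric first and last ends, 4.34 to 4.47 and 1.41 to 1.50 for metacentric ones, 3.18 to 3.24 and -2.97 to -2.92 for the differences, and 5.85 to 5.94 and -0.302 to -0.253 for metacentric minus acrocentric. In limma it gave 2 to 14 ends, 15 to 119 windows and 0 to 1 chromosome differences between MAD and GOM, 0 ends, 0 windows and 0 to 1 chromosome differences between RAD and GOM, and 1 to 8 ends, 21 to 68 windows and 0 to 2 chromosome differences between RAD and MAD. MAD minus GOM of acrocentric first ends ranged from 0.202 to 0.342, and passed without GOM library 2 (exact permutation, adjusted p = 0.0214). Leaving out that library removed the overlap between GOM and RAD, so this p is no separate support.

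Of the counts, the replicate block (animal as a term) gave 157 and 100 windows for MAD minus GOM and RAD minus MAD, beside 13.1% and 12.4% of all windows. It gave 2 and 4 chromosome differences for the same pairs, and moved no other count by over 1.5 times. Chromosome differences between MAD and GOM were 3 with ends of 1 Mb, 3 with ends of 5 Mb, 1 after division by the SD and 1 with medians, against 0. Between RAD and MAD they were 1 with ends of 1 Mb, and 0 with medians or quantile normalization, against 2. Without near-0 bins 53 and 29 bins of 20 kb passed, against 0 (1.03% and 0.563% of the bins of the ends, beside 0.751% and 0.729% of all bins). Alternatives for gene content and expression were not run, since no gene could be placed. With 3 libraries a depot, class means could not be told apart below the spread between libraries.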
